A study of Danio rerio with 15 samples.

Results

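Voltage-gated sodium and calcium channel genes were described in zebrafish brain tumors and in normal zebrafish brain. Members were the gene IDs whose symbol, ignoring case, starts with cacn, or with scn followed by a digit. In the deposited table of 22513 genes, 60 met this rule, 13 of them sodium channel genes (7 alpha and 6 beta subunits) and 47 calcium channel genes (18 alpha1, 7 beta, 8 alpha2delta and 14 gamma subunits). For 4 further IDs that carry such a symbol the values were not analysed here. The symbols are a mixture of zebrafish and human style, and 20 members share their symbol with another member, so these are given with their Ensembl ID.

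The 15 libraries came from oligo dT selected RNA of dissected tissue, 8 of whole normal brain and 7 of brain tumor driven by NRAS, a small GTPase that signals to growth and survival pathways. The submitters call the tumors CNS-PNET, primitive neuroectodermal tumors of the central nervous system. Libraries kept the numbers of their labels, normal brains 1, 2, 3, 4, 9, 10, 11 and 15 and tumors 5, 6, 7, 8, 12, 13 and 14. The sources used here do not give the fish line, the age of the fish, or the promoter and allele of NRAS. Whether each library is its own fish is not stated in the labels, and p-values therefore measure the spread between these samples only.

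Voltage-gated sodium channels open on depolarization and carry the rising phase of the action potential. Their alpha subunit forms the pore, and beta subunits, single-pass membrane proteins of the immunoglobulin fold, tune gating and adhere to neighbouring cells. Voltage-gated calcium channels turn depolarization into calcium entry. Their alpha1 pores fall into the L-type Cav1 group (muscle contraction, signalling to the nucleus, sensory synapses), the Cav2 group (transmitter release at nerve endings) and the low-voltage T-type Cav3 group (rhythmic firing), and beta and alpha2delta subunits carry the pores to the membrane. Of the gamma subunits, CACNG1 belongs to the channel of skeletal muscle, while CACNG2, CACNG3, CACNG4, CACNG5, CACNG7 and CACNG8 are transmembrane regulators of AMPA-type glutamate receptors.

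Depth was 13605588 to 21347976 counts a library. By these unscaled totals 3 counts, the limit that a count of 0 allows, correspond to 0.141 to 0.220 counts per 1000000 (CPM). This limit covers counting error only. All other CPM use scaled library sizes, so the limit is approximate beside them. Summed transcripts of 27 pan-neuronal genes (among them SNAP25, part of the vesicle fusion machinery) lay between 14944 and 17066 CPM in normal brain and between 718 (tumor 13) and 3808 CPM (tumor 8) in tumors. All 26 of these genes that were tested were lower in tumor (as were 33.4% of all genes tested), with a median log2 fold change of -3.29. In these bulk samples, fewer neurons and less channel RNA per neuron cannot be told apart. Transcripts of 16 skeletal muscle genes summed to 25.7 to 275 CPM in normal brain and to 894, 1188, 968 and 2178 CPM in tumors 5, 6, 12 and 14. The sums of tumors 7, 8 and 13 (25.8, 67.4 and 112 CPM) lay within this range, whose upper end comes from normal brains 3 (210 CPM) and 4 (275 CPM). Single genes of the list were above every normal brain in 12 to 14 of 16 cases in tumors 5, 6, 12 and 14, in 6 in tumor 13 and in 0 in tumors 7 and 8. Normal brain 1 carried liver transcripts (15726 CPM over 16 genes, against at most 302 in every other library).

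Most of the channel genes were lower in the tumors. Of the 54 members that passed the filter on low counts, 45 were lower and 5 higher in tumor by edgeR's quasi-likelihood test at a Benjamini-Hochberg adjusted p below 0.05 over all 19260 genes tested, and 4 did not pass. Among all genes tested 33.4% were lower and 43.5% higher, 76.9% in either direction. The median log2 fold change (tumor over normal brain) was -2.79 for the tested members and 0.21 for all genes. With median-ratio scaling the latter was 0.02, so directions near 0 depend on the scaling. In 41 of the tested members every tumor lay below every normal brain (24.6% of all genes tested), and in 1, scn4ab, every tumor lay above (27.2% of all genes tested). Decreases of at least 2-fold were found for 44 tested members (25.0% of all genes tested) and of at least 8-fold for 22 (7.05% of all genes tested). The 6 members under the filter (cacng3a, cacng6a, cacng6b, CACNA2D1, CACNA2D4 and cacna2d4a) had means of at most 0.501 CPM in each group and were given no test; among these, the tumors also lay below every normal brain in CACNA2D1 and CACNA2D4.

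**Figure D1:**
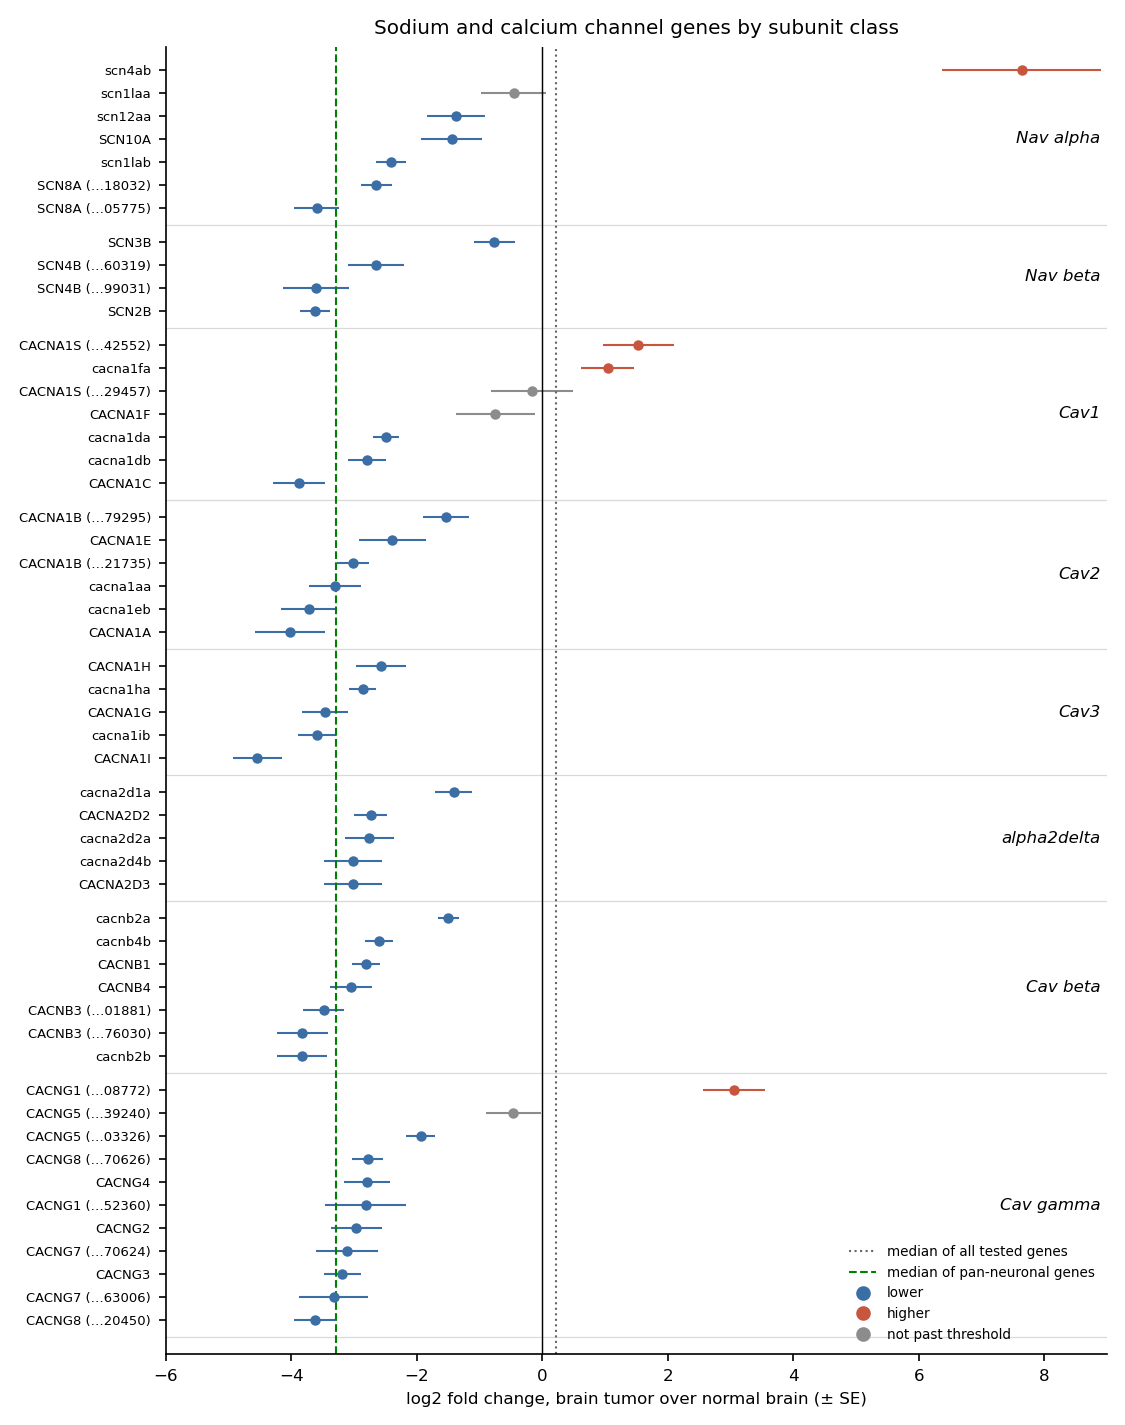
Log2 fold change of brain tumor (7 libraries) over normal brain (8 libraries) for 52 of the tested channel genes, grouped by subunit class; points are edgeR estimates, bars are ± 1 SE, colours give the call at an adjusted p of 0.05, and gene IDs are cut to their last digits. Most points lie left of the dotted line, the median of all genes (0.21). They lie on both sides of the dashed line, the median of pan-neuronal genes (-3.29), with more of them to its right. scn4ab lies far to the right at 7.64.

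Of 7 sodium channel alpha genes 5 were lower, 1 higher and 1 did not pass (all genes tested: 33.4% lower, 43.5% higher). Their median log2 fold change was -1.44. In normal brain 3 of them held 49.2 ± 2.32%, 26.3 ± 1.37% and 23.0 ± 2.56% of the summed alpha subunit level. SCN8A (ENSDARG00000005775), for the Nav1.6 pore of nodes of Ranvier and axon initial segments, was the highest at 53.7 ± 5.25 FPKM (mean ± SD, n = 8), a level per kilobase that can be compared between genes. The other SCN8A copy (ENSDARG00000018032) followed at 28.7 ± 2.64 FPKM. Close to it came scn1lab at 25.0 ± 3.11 FPKM, a zebrafish relative of SCN1A whose loss gives seizures in larvae. The difference between these last 2 levels was within the sum of their SDs.

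SCN8A (ENSDARG00000005775) ranged from 305 to 409 CPM in normal brain (median 351). In tumors it held 21.2 (tumor 5), 39.2 (tumor 6), 26.3 (tumor 7), 61.7 (tumor 8), 27.0 (tumor 12), 5.37 (tumor 13) and 24.5 CPM (tumor 14). The groups were far apart, with tumor 8 the highest and tumor 13 the lowest of the tumors, and the log2 fold change was -3.59 ± 0.36 (SE; adjusted p = 1.61e-07). It was the largest decrease among the alpha genes. The second copy, SCN8A (ENSDARG00000018032), fell less: normal brains had 154 to 198 CPM and tumors 9.79 to 45.5 CPM, a log2 fold change of -2.65 ± 0.25 (adjusted p = 9.13e-08). scn1lab fell from between 157 and 238 to between 19.8 and 79.2 CPM (-2.41 ± 0.24), again with no overlap and with tumor 8 apart from the other tumors, whose highest value was 42.8 CPM.

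The remaining neuronal-type alpha genes had low levels, with means of at most 1.91 CPM. SCN10A, which in mammals encodes the Nav1.8 pore of pain-sensing neurons, had 1.91 ± 0.652 CPM in normal brain and 0.708 ± 0.808 CPM in tumor and was called lower (-1.44 ± 0.49 on the log2 scale, adjusted p = 0.0139), although tumor 6 at 2.49 CPM lay within the normal range. Without tumor 6 its log2 fold change was -2.19. scn12aa fell from 1.13 ± 0.735 to 0.430 ± 0.294 CPM (-1.38 ± 0.47), with normal brain 2 the highest at 2.73 CPM. scn1laa had 0.656 ± 0.350 CPM in normal brain and 0.477 ± 0.372 CPM in tumor, a difference that did not pass (adjusted p = 0.434).

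scn4ab, a zebrafish gene for the Nav1.4 pore of skeletal muscle, went the other way. In normal brain it ranged from 1.06 (normal brain 3) to 6.58 CPM (normal brain 15), with a median of 4.45 CPM. In tumors it reached 9.58 (tumor 7), 22.5 (tumor 8), 32.9 (tumor 5), 148 (tumor 13), 249 (tumor 6), 1118 (tumor 12) and 4036 CPM (tumor 14). Every tumor was above every normal brain, but the tumors themselves spanned more than the distance between the groups. The log2 fold change was 7.64 ± 1.27 (adjusted p = 4.25e-05), rank 3 among all 19260 genes tested. Tumor 14 decided much of this size: without it the log2 fold change was 5.93, and the call held without any 1 library. In tumor 14, scn4ab ranked 6 among all genes by count (0.416% of all counts); in tumor 12 it ranked 87, and in normal brain it ranked between 12548 and 17684.

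**Figure D2:**
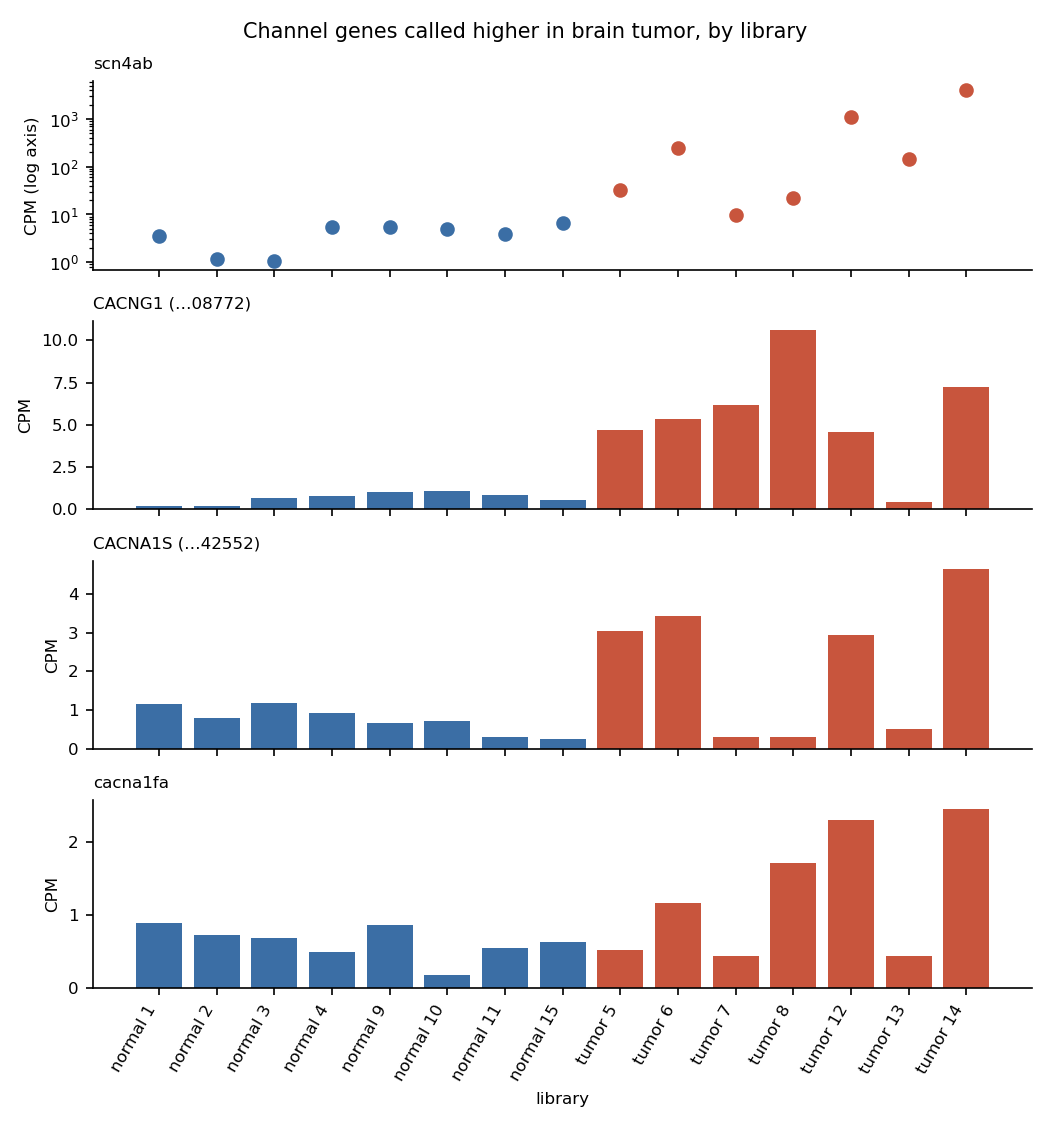
CPM by library (8 normal brains in blue, 7 brain tumors in red) of 4 members called higher in tumor; scn4ab is on a log axis with points, the others are bars from 0. For scn4ab all tumors lie above all normal brains; for CACNG1 tumor 13 lies within the normal range, and for CACNA1S the high tumors are 5, 6, 12 and 14.

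With this gene the make-up of alpha subunit transcripts was altered. scn4ab made up 0.137 to 0.830% of the summed alpha FPKM in normal brain, and 26.0 (tumor 5), 67.2 (tumor 6), 9.60 (tumor 7), 10.5 (tumor 8), 93.8 (tumor 12), 80.4 (tumor 13) and 97.8% (tumor 14) in tumors. It was the leading alpha gene in tumors 6, 12, 13 and 14. The summed level of the other 6 alpha genes was 108 ± 8.52 FPKM in normal brain and 13.5 ± 7.23 FPKM in tumor, from 4.06 (tumor 13) to 27.4 FPKM (tumor 8). Low alpha subunit levels were therefore shared by all 7 tumors once scn4ab was set aside, whereas with it tumors 12 and 14 held 162 and 583 FPKM, above every normal brain (at most 126 FPKM).

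**Figure D3:**
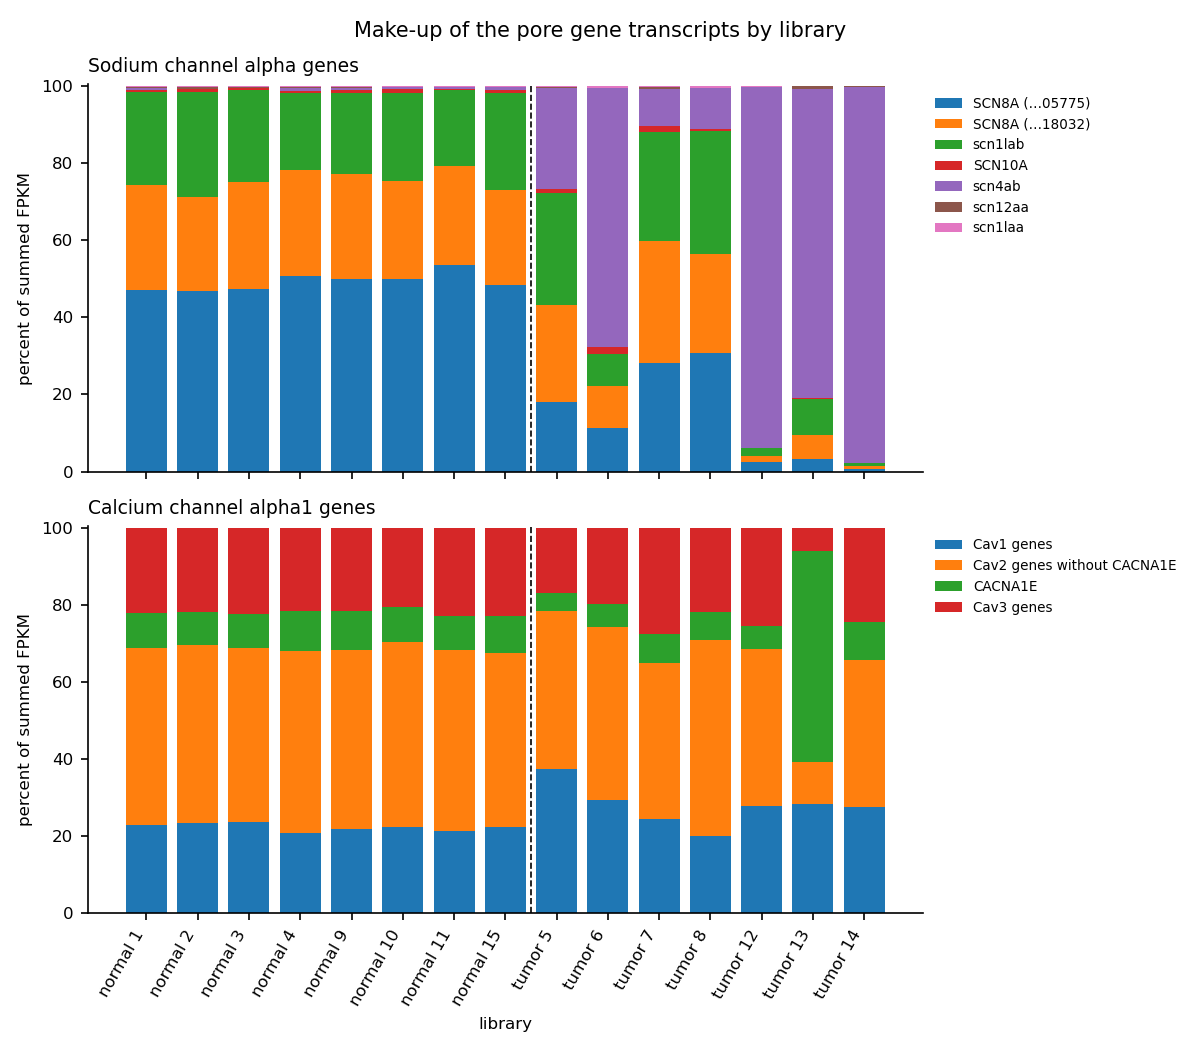
Percent of the summed FPKM of the 7 sodium channel alpha genes (top) and of the 18 calcium channel alpha1 genes (bottom, with CACNA1E apart from the other Cav2 genes), by library; the dashed line separates normal brain from brain tumor. The 8 normal brains are alike, scn4ab takes 9.60 to 97.8% of sodium channel alpha transcripts in tumors, and CACNA1E takes 54.6% of the calcium channel pore transcripts in tumor 13.

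Since scn4ab is a muscle gene, its levels are given beside those of the muscle list. The 4 tumors with high muscle transcripts (5, 6, 12 and 14) held 32.9 to 4036 CPM of scn4ab. Tumors 7 and 8, with muscle sums within the normal range and no gene of that list above every normal brain, held 9.58 and 22.5 CPM, both above the highest normal brain. Tumor 13, at 148 CPM of scn4ab, had a muscle sum within the normal range too, but some of its muscle genes were above every normal brain, among them the actin ACTA1 (ENSDARG00000055618; 19.7 CPM, against at most 1.29), the calcium pump atp2a1 (17.8 CPM, against at most 11.6) and the myosin myhz2 (4.27 CPM, against at most 0.551). The ratio of scn4ab to ckma, the creatine kinase of muscle, was 0.0184 to 3.15 in normal brain, and 0.135 (tumor 5), 0.743 (tumor 6), 2.16 (tumor 7), 1.25 (tumor 8), 3.65 (tumor 12), 13.4 (tumor 13) and 6.19 (tumor 14) in tumors. This ratio exceeded all normal brains in tumors 12, 13 and 14. The ratio of scn4ab to the summed muscle list was 0.00506 to 0.256 in normal brain, and 0.0368 (tumor 5), 0.209 (tumor 6), 0.371 (tumor 7), 0.335 (tumor 8), 1.15 (tumor 12), 1.33 (tumor 13) and 1.85 (tumor 14) in tumors. By this measure 5 tumors exceeded all normal brains, and tumors 5 and 6 were within their range by both. By gene order in RefSeq (assembly GRCz12tu) its neighbours are myl4 and gh1. myl4, a myosin light chain gene, had at most 0.137 CPM in normal brain and between 0.0726 (tumor 7) and 9.20 CPM (tumor 13) in tumors. Every tumor except tumor 7 lay above every normal brain. gh1, the growth hormone gene, had 102 CPM in tumor 12, 34.6 CPM in tumor 5 and 0.363 CPM in tumor 14. It reached 20.8 CPM in normal brain 2, and overlapped between the groups. The part of muscle tissue in the scn4ab level was not tested beyond these values.

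**Figure D4:**
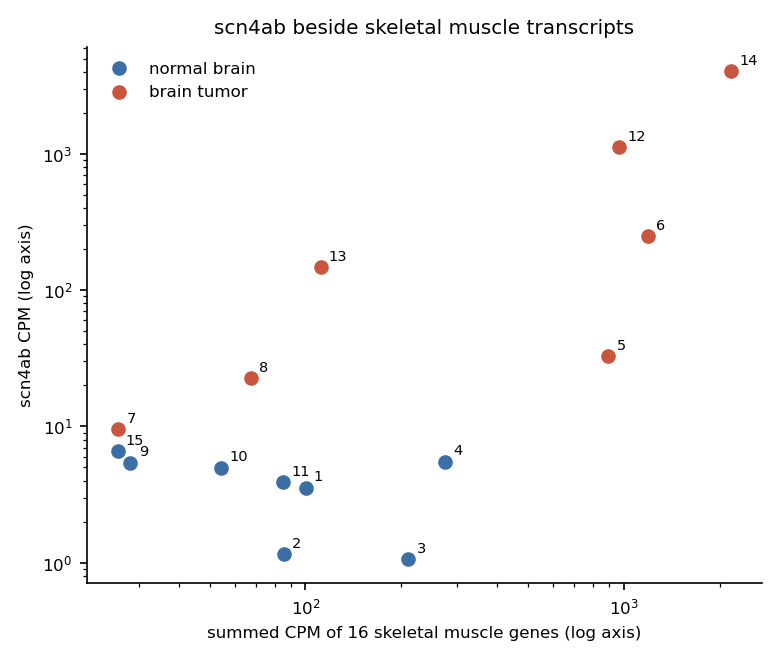
CPM of scn4ab (log axis) against the summed CPM of 16 skeletal muscle genes (log axis), 1 point a library with its number. Tumors 7, 8 and 13 lie within the summed muscle range of normal brain (25.7 to 275 CPM) but have more scn4ab, and tumors 5, 6, 12 and 14 are high on the muscle axis.

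Of the sodium channel beta genes 4 are described, and each of them was lower in tumor (as were 33.4% of all genes tested). SCN2B, for the beta2 subunit that links covalently to neuronal alpha subunits, had the largest decrease of the beta genes. It ranged from 112 to 157 CPM in normal brain (median 126), and held 6.77 (tumor 5), 13.4 (tumor 6), 10.2 (tumor 7), 19.2 (tumor 8), 10.8 (tumor 12), 4.86 (tumor 13) and 8.94 CPM (tumor 14) in tumors. All tumors were low, and the log2 fold change of -3.62 ± 0.24 (12.3-fold lower, adjusted p = 2.19e-09) had the smallest p of all members. The copies of SCN4B, whose beta4 subunit in mammals promotes resurgent current and fast firing, fell by 3.60 (ENSDARG00000099031) and 2.65 (ENSDARG00000060319) on the log2 scale. SCN3B moved least: it had 57.8 ± 12.8 CPM in normal brain and 34.0 ± 22.4 CPM in tumor (log2 fold change -0.76 ± 0.33, adjusted p = 0.0431). Tumors 12 (51.2 CPM) and 14 (75.5 CPM) were within its normal range of 41.2 to 81.0 CPM, and the call was lost without any 1 of 8 libraries (normal brains 3, 10 and 15 and tumors 5, 6, 7, 8 and 13; adjusted p up to 0.0859).

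Of 18 calcium channel pore genes 14 were lower, 2 higher and 2 did not pass (all genes tested: 33.4% lower, 43.5% higher). Their median log2 fold change was -2.82. Their summed level was 139 ± 12.8 FPKM in normal brain and 16.1 ± 5.99 FPKM in tumor. Cav2 genes held 55.7 ± 1.24% of this sum in normal brain and 51.8 ± 7.34% in tumor, Cav1 genes 22.3 ± 0.961% and 27.9 ± 5.30%, and Cav3 genes 22.0 ± 0.755% and 20.3 ± 7.24%. For Cav2 and Cav3 the mean shares of the groups differed by less than the SD over tumors. This SD includes tumor 13, at 65.6% for Cav2, most of it CACNA1E (54.6%), and at 6.03% for Cav3. Cav2 shares of tumors 5, 6, 7, 12 and 14 (45.6 to 50.9%) lay below every normal brain (54.1 to 57.6%). That of tumor 8 was 58.0%. Cav3 shares of tumors lay on both sides of the normal range (20.5 to 22.9%). No test of the shares was run.

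All 6 Cav2 genes were lower (as were 33.4% of all genes tested), with a median log2 fold change of -3.16. cacna1aa, a gene for the P/Q-type pore of fast transmitter release, was the highest calcium channel pore gene of normal brain at 26.0 ± 2.38 FPKM. It ranged from 255 to 313 CPM in normal brain (median 266), and held 29.5 (tumor 5), 38.1 (tumor 6), 21.6 (tumor 7), 53.7 (tumor 8), 23.6 (tumor 12), 2.14 (tumor 13) and 27.9 CPM (tumor 14) in tumors, a log2 fold change of -3.31 ± 0.41 (adjusted p = 2.27e-06). CACNA1A, its paralog, had the largest Cav2 decrease. It ranged from 134 to 201 CPM in normal brain (median 170), and held 2.19 (tumor 5), 13.2 (tumor 6), 10.6 (tumor 7), 24.9 (tumor 8), 12.8 (tumor 12), 0.294 (tumor 13) and 10.1 CPM (tumor 14) in tumors, a log2 fold change of -4.02 ± 0.55 (adjusted p = 6.23e-06). For both genes no tumor reached the normal range, and tumor 13 was more than 10-fold below the highest tumor. The N-type pore genes CACNA1B fell by 3.01 (ENSDARG00000021735) and by 1.53 (ENSDARG00000079295) on the log2 scale, the latter with tumor 6 (23.1 CPM) inside the normal range of 19.7 to 40.2 CPM.

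CACNA1E, for the R-type pore, separated tumor 13 from the others. It ranged from 116 to 157 CPM in normal brain (median 123), and held 5.22 (tumor 5), 14.5 (tumor 6), 8.71 (tumor 7), 18.1 (tumor 8), 9.02 (tumor 12), 102 (tumor 13) and 14.5 CPM (tumor 14) in tumors. The log2 fold change was -2.39 ± 0.53 (adjusted p = 0.000696), and -3.46 without tumor 13. In tumor 13 this gene made up 54.6% of the summed pore FPKM, while normal brain had 8.44 to 10.5% and the remaining tumors 4.74 to 9.91%. Its paralog cacna1eb showed no such exception: tumor 13 had 0.589 CPM, the lowest of all libraries, and the log2 fold change was -3.72 ± 0.45.

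Of 7 Cav1 genes 3 were lower, 2 higher and 2 did not pass (all genes tested: 33.4% lower, 43.5% higher). Their median log2 fold change was -0.75. The Cav1 genes abundant in brain all fell. CACNA1C, for the Cav1.2 pore of neurons, heart and smooth muscle, was highest in its class at 16.4 ± 1.94 FPKM in normal brain and also had its largest decrease. It ranged from 83.3 to 126 CPM in normal brain (median 109), and held 3.16 (tumor 5), 10.7 (tumor 6), 5.66 (tumor 7), 15.1 (tumor 8), 9.18 (tumor 12), 0.810 (tumor 13) and 7.17 CPM (tumor 14) in tumors, a log2 fold change of -3.87 ± 0.41 (adjusted p = 3.89e-07). The Cav1.3 genes cacna1da (-2.48 ± 0.21) and cacna1db (-2.79 ± 0.31), of pacemaking neurons and hair cells, fell without overlap between the groups. In cacna1db tumor 6 stood above the other tumors at 5.05 CPM, and the next was 2.19 CPM.

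The Cav1 genes of muscle and retina were scarce, and of these 2 were called higher and 2 did not pass. CACNA1S encodes the voltage sensor of skeletal muscle. Its copy ENSDARG00000042552 ranged from 0.253 to 1.17 CPM in normal brain (median 0.755), and held 3.03 (tumor 5), 3.44 (tumor 6), 0.290 (tumor 7), 0.295 (tumor 8), 2.94 (tumor 12), 0.515 (tumor 13) and 4.63 CPM (tumor 14) in tumors. The 4 tumors above all normal brains were those with high muscle list sums, and the other 3 lay within the normal range; the part of muscle tissue in this level was not tested. The gene was called higher (log2 fold change 1.53 ± 0.57, adjusted p = 0.0221), but not without normal brain 11 (adjusted p = 0.0553), without tumor 14 (adjusted p = 0.0856), in libraries 1 to 8 alone or with limma-voom. The second CACNA1S copy (ENSDARG00000029457) had 0.655 ± 0.243 CPM in normal brain and 0.593 ± 0.667 CPM in tumor and did not pass (adjusted p = 0.826).

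CACNA1F encodes the Cav1.4 pore of photoreceptor synapses. The gene with this symbol ranged from 4.17 to 8.20 CPM in normal brain (median 6.42), and held 0.451 (tumor 5), 1.76 (tumor 6), 0.653 (tumor 7), 1.06 (tumor 8), 2.78 (tumor 12), 18.0 (tumor 13) and 1.54 CPM (tumor 14) in tumors. Tumors lay below every normal brain except tumor 13, which lay above all of them. With this library the gene did not pass (log2 fold change -0.75 ± 0.63, adjusted p = 0.290), and without it the log2 fold change was -2.17 (adjusted p = 2.66e-05). Transcripts of 24 photoreceptor genes summed to 14.1 CPM in tumor 13, just under the lowest normal brain (14.3 to 235 CPM). Over all tumors these sums were 6.64 to 64.8 CPM, with a median of 10.5 CPM. The part of photoreceptor tissue in the CACNA1F level was not tested. cacna1fa, the other gene of this name, was called higher at very low levels. It ranged from 0.180 to 0.890 CPM in normal brain (median 0.662), and held 0.516 (tumor 5), 1.17 (tumor 6), 0.435 (tumor 7), 1.71 (tumor 8), 2.30 (tumor 12), 0.442 (tumor 13) and 2.45 CPM (tumor 14) in tumors (log2 fold change 1.05 ± 0.42, adjusted p = 0.0339). The call of cacna1fa was lost with median-ratio scaling (0.85), with DESeq2, with limma-voom, and without any 1 of 8 libraries (normal brains 2, 4, 10, 11 and 15 and tumors 8, 12 and 14; adjusted p up to 0.140).

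All 5 genes of the T-type Cav3 group were lower (as were 33.4% of all genes tested). Their median log2 fold change was -3.46. cacna1ha, for Cav3.2, was the highest at 13.6 ± 1.38 FPKM in normal brain. It ranged from 105 to 144 CPM in normal brain (median 126), and held 10.6 (tumor 5), 23.7 (tumor 6), 18.2 (tumor 7), 25.4 (tumor 8), 19.4 (tumor 12), 8.25 (tumor 13) and 17.1 CPM (tumor 14) in tumors, a log2 fold change of -2.86 ± 0.21 (adjusted p = 6.49e-09). CACNA1I, for the Cav3.3 pore that in mammals drives thalamic bursts, had the largest decrease of all members. It ranged from 14.3 to 22.2 CPM in normal brain (median 18.3), and held 0.193 (tumor 5), 1.46 (tumor 6), 0.580 (tumor 7), 1.65 (tumor 8), 0.587 (tumor 12), 0.147 (tumor 13) and 0.817 CPM (tumor 14) in tumors. The log2 fold change was -4.54 ± 0.39 (23.2-fold lower, adjusted p = 3.38e-08), and the lowest tumors were near the level of 3 counts. CACNA1G, for Cav3.1, fell by 3.46 on the log2 scale, cacna1ib by 3.59 and CACNA1H by 2.56.

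All 7 genes for cytoplasmic beta subunits were lower (as were 33.4% of all genes tested). In each of them every tumor lay below every normal brain (24.6% of all genes tested). Their median log2 fold change was -3.04. cacnb4b was by far the highest, at 73.9 ± 4.75 FPKM in normal brain, and held 53.7 ± 2.06% of the summed beta FPKM in normal brain and 57.4 ± 12.1% in tumor. It ranged from 240 to 305 CPM in normal brain (median 273), and held 36.7 (tumor 5), 56.7 (tumor 6), 37.7 (tumor 7), 70.9 (tumor 8), 25.6 (tumor 12), 64.1 (tumor 13) and 24.3 CPM (tumor 14) in tumors (log2 fold change -2.60 ± 0.22, adjusted p = 3.36e-08). Here tumor 13 was second highest of the tumors, unlike in most members.

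Within the beta class the copies of cacnb2 lay at opposite ends. cacnb2b had the largest decrease: it ranged from 14.8 to 26.5 CPM in normal brain (median 20.5), and held 1.1 (tumor 5), 1.90 (tumor 6), 0.798 (tumor 7), 3.42 (tumor 8), 1.17 (tumor 12), 0.147 (tumor 13) and 1.68 CPM (tumor 14) in tumors (log2 fold change -3.83 ± 0.40, adjusted p = 2.71e-07). cacnb2a had the smallest, from 38.0 ± 5.26 to 13.5 ± 3.76 CPM (-1.49 ± 0.17). Its share of beta subunit FPKM went from 5.69 ± 0.593% to 13.9 ± 4.53%. CACNB1, in mammals the beta subunit of skeletal muscle and also present in brain, fell by 2.81 on the log2 scale, also in the tumors with muscle transcripts, where it had 5.93 to 12.5 CPM against 37.4 to 62.4 CPM in normal brain.

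Of 8 alpha2delta genes, extracellular subunits of which some bind gabapentin in mammals, 5 were tested. All 5 were lower (as were 33.4% of all genes tested), and every tumor lay below every normal brain (24.6% of all genes tested). Their median log2 fold change was -2.76. CACNA2D2 was the highest at 29.2 ± 2.80 FPKM in normal brain. It ranged from 83.3 to 116 CPM in normal brain (median 109), and held 13.6 (tumor 5), 31.3 (tumor 6), 18.1 (tumor 7), 19.6 (tumor 8), 10.3 (tumor 12), 9.64 (tumor 13) and 6.99 CPM (tumor 14) in tumors (log2 fold change -2.73 ± 0.27, adjusted p = 1.35e-07). CACNA2D3 had the largest decrease. It ranged from 9.66 to 18.3 CPM in normal brain (median 14.6), and held 0.258 (tumor 5), 1.90 (tumor 6), 1.02 (tumor 7), 3.24 (tumor 8), 1.98 (tumor 12), 0.221 (tumor 13) and 3.90 CPM (tumor 14) in tumors (log2 fold change -3.01 ± 0.47, adjusted p = 2.05e-05). cacna2d1a fell least, from 11.5 ± 2.13 to 4.31 ± 2.30 CPM (-1.41 ± 0.30), and its share of the class went from 5.83 ± 1.06% to 15.8 ± 10.4%. This share was within the normal range (4.5 to 7.8%) in tumors 7 (5.74%) and 8 (6.77%). In tumors 5, 6, 12, 13 and 14 it was 8.87 to 34.1%.

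Of 14 gamma genes 11 were tested, of which 9 were lower, 1 higher and 1 did not pass (all genes tested: 33.4% lower, 43.5% higher). The median log2 fold change of the 11 was -2.82. Of the 9 lower genes 8 were AMPA receptor regulators. CACNG8 (ENSDARG00000070626) was the highest at 41.1 ± 2.86 FPKM in normal brain. It ranged from 112 to 139 CPM in normal brain (median 120), and held 19.8 (tumor 5), 16 (tumor 6), 18.2 (tumor 7), 32.5 (tumor 8), 13.1 (tumor 12), 5.89 (tumor 13) and 17.9 CPM (tumor 14) in tumors (log2 fold change -2.78 ± 0.25). Its copy CACNG8 (ENSDARG00000020450) had the largest decrease of the class. It ranged from 72.4 to 103 CPM in normal brain (median 85.3), and held 3.55 (tumor 5), 10.8 (tumor 6), 5.37 (tumor 7), 14.5 (tumor 8), 8.43 (tumor 12), 2.94 (tumor 13) and 3.54 CPM (tumor 14) in tumors (log2 fold change -3.63 ± 0.33, adjusted p = 5.69e-08). CACNG2, or stargazin, fell by 2.96 on the log2 scale, CACNG3 by 3.18 and CACNG4 by 2.80.

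The copies of CACNG7 both had their highest tumor in tumor 8. In normal brain ENSDARG00000063006 had 49.8 to 61.6 CPM, in tumor 8 it had 22.5 CPM, and elsewhere 0.810 to 4.43 CPM, with a log2 fold change of -3.33 (-4.41 without tumor 8). In normal brain ENSDARG00000070624 had 37.4 to 47.5 CPM, in tumor 8 it had 15.2 CPM, and elsewhere 0.368 to 5.76 CPM, with -3.11 (-3.81 without tumor 8). Both kept their call without it. CACNG5 (ENSDARG00000039240) did not pass (-0.46 ± 0.44, adjusted p = 0.343), with 6.74 to 11.8 CPM in normal brain, 22.7 CPM in tumor 7 and 2.06 to 7.48 CPM elsewhere. Without tumor 7 it was lower (-1.14, adjusted p = 0.00270). Its copy CACNG5 (ENSDARG00000003326) fell by 1.94 on the log2 scale without overlap.

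CACNG1, the gamma subunit gene of skeletal muscle, had copies that moved apart. ENSDARG00000008772 ranged from 0.182 to 1.08 CPM in normal brain (median 0.717), and held 4.71 (tumor 5), 5.34 (tumor 6), 6.17 (tumor 7), 10.6 (tumor 8), 4.59 (tumor 12), 0.442 (tumor 13) and 7.22 CPM (tumor 14) in tumors. It was above all normal brains in 6 tumors and within their range in tumor 13 (log2 fold change 3.06 ± 0.50, adjusted p = 3.60e-05). Tumors 7 and 8, whose muscle list sums were within the normal range, held 6.17 and 10.6 CPM of this copy. Tumors 5, 6, 12 and 14, with high muscle list sums, held 4.59 to 7.22 CPM. The part of muscle tissue in this level was not tested. ENSDARG00000052360 fell from between 2.02 and 6.51 CPM to between 0 and 2.01 CPM (-2.82 ± 0.65, adjusted p = 0.000886), with tumor 8 the highest; without that tumor the log2 fold change was -3.59.

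Whether duplicate copies changed their balance was tested on the log2 ratio of their CPM (with 0.5 added) by an exact two-sided permutation test over libraries. There were 20 pairs of tested members with a shared base name, within 2387 such pairs of the whole table, over which p-values were adjusted. The ratio changed in 13 of 20 pairs of channel genes and in 68.9% of all pairs, a share close to that background. In 4 of the pairs described the groups did not overlap and p was the smallest that 6435 splits allow (exact p = 0.000155, adjusted p = 0.000408). How many of all 2387 pairs had no such overlap was not counted, so whether this is more frequent in channel genes was not tested. The ratio of CACNG1 ENSDARG00000008772 to ENSDARG00000052360 went from -2.08 ± 0.565 to 2.43 ± 1.03, a reversal in 7 of 7 tumors. Counts were low: the first copy had 3 to 19 a library in normal brain, and the second 0 to 34 in tumors. In tumor 13 the reversal rests on 6 counts against 1. The added 0.5 therefore sets part of these values.

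The other 3 pairs without overlap kept or lost their leading copy. The log2 ratio of cacnb2a to cacnb2b went from 0.857 ± 0.341 to 2.97 ± 0.691. That of the SCN8A copies (ENSDARG00000005775 to ENSDARG00000018032) went from 1.08 ± 0.103 to 0.000716 ± 0.524, with single tumors from -0.809 to 0.755. CPM are not corrected for gene length, so a ratio near 0 does not mean equal levels of the copies. The ratio of scn1laa to scn1lab went from -7.52 ± 0.525 to -5.28 ± 0.566, where scn1laa had 0 to 19 counts a library and the added 0.5 sets part of the value. Ratios that did not pass included those of cacna1da to cacna1db (difference 0.05, adjusted p = 0.876) and of the CACNB3 copies (difference 0.05, adjusted p = 0.789).

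**Figure D5:**
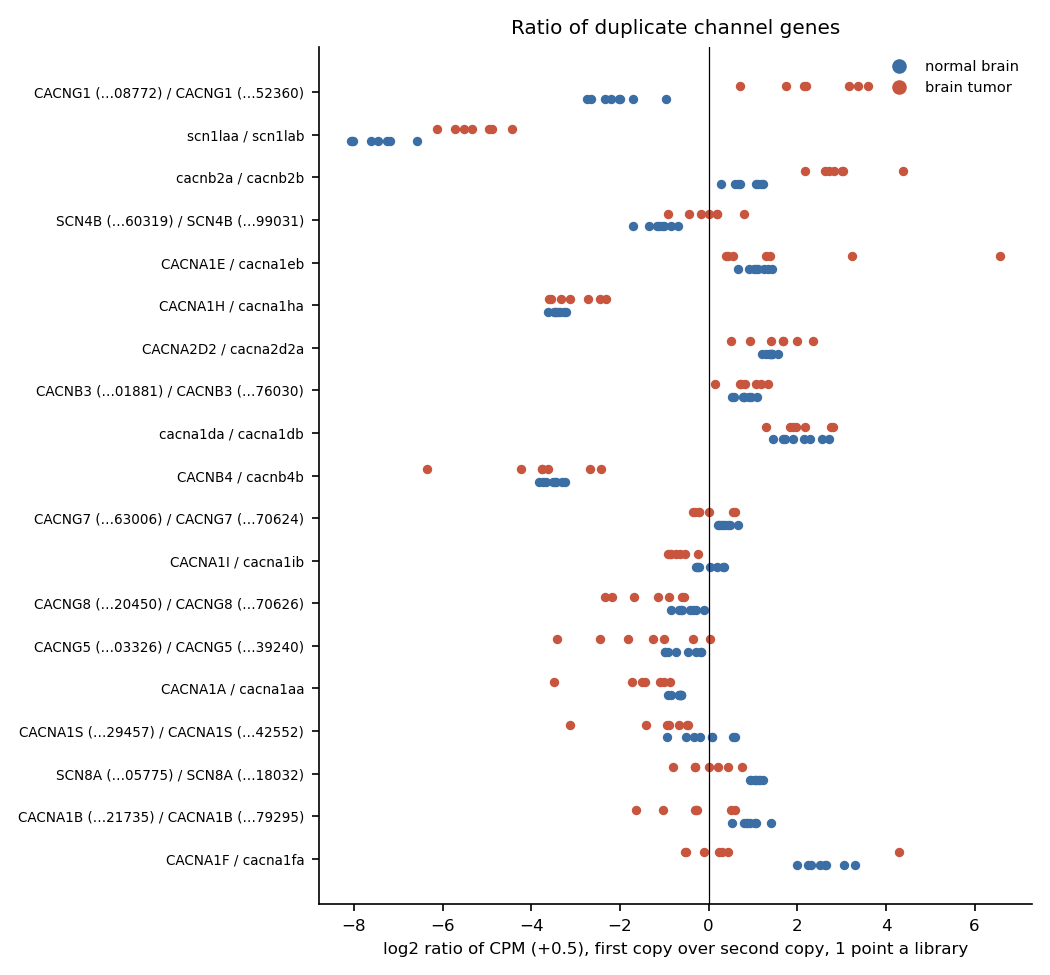
Log2 ratio of CPM (0.5 added) of the first over the second copy of 19 pairs of duplicate channel genes, 1 point a library, normal brain in blue and brain tumor in red, ordered by the change; gene IDs are cut to their last digits. The CACNG1 pair crosses 0 in all 7 tumors, and points of the groups do not overlap in 4 of the pairs drawn.

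Among the 45 members that were lower, the tumors kept a common order at the ends. Tumor 8 was the highest tumor in 25 of them and tumor 13 the lowest in 33. In the 26 pan-neuronal genes these numbers were 19 and 21, and among all 6436 genes lower in tumor the shares were 38.0% and 54.9%. Tumor 13 was the highest tumor in 2 of the lower members, CACNA1E and scn12aa (0.883 CPM), and the second highest in cacnb4b.

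Genes that work with the channels mostly fell as well. The shares over all genes tested were 33.4% lower and 43.5% higher. Of 23 partners of sodium channels at nodes and initial segments 19 were lower, 1 was higher and 3 did not pass (median log2 fold change -2.43). The smallest p among the decreases was that of sptbn4a, a spectrin of the initial segment, which fell from 151 ± 11.5 to 16.6 ± 6.70 CPM (-3.19). TNR, for tenascin-R, a matrix protein that binds sodium channel beta subunits, rose from 77.1 ± 7.39 to 1721 ± 619 CPM (4.48). Of 30 tested partners of calcium channels 27 were lower, 2 higher and 1 did not pass (median -2.54). CBARP, which binds beta subunits and lowers calcium current, fell by 3.12, and DPYSL2, a collapsin response mediator that binds the N-type channel, rose by 1.46. The other increase was that of CASK, a scaffold protein of synapses (1.54).

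All 4 genes of the sodium leak channel complex, a channel that sets resting excitability, were lower (median -3.04), with the smallest p for UNC80 (-3.25). Of 26 calcium dependent effectors, such as calmodulin, calcineurin and CaM kinases, 23 were lower, 2 higher and 1 did not pass (median -2.10). The smallest p was that of the calcineurin subunit PPP3R1 (ENSDARG00000092659, -2.10) among decreases and of the transcription factor creb1a (0.99) among increases, where nfatc3b (1.27) was the other. Of 21 genes for store-operated, intracellular and other calcium channels 8 were higher, 7 lower and 6 did not pass (median 0.15). Both directions were also common among all genes tested (43.5% higher and 33.4% lower). TPCN1, a two-pore channel of endolysosomes, rose from 24.9 ± 0.874 to 99 ± 41.1 CPM (1.99), and the inositol trisphosphate receptor ITPR1 (ENSDARG00000074149) fell from 273 ± 53.0 to 19.9 ± 14.2 CPM (-3.78). Whether this list differs from the voltage-gated members was not tested.

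By the adjusted p of the authors' deposited table, 50 members were lower, 4 were higher and 6 were not past 0.05. Its call matched the one given here for 52 of the 54 tested members; in the authors' deposited table CACNA1F was lower and cacna1fa did not pass.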

How the data were processed

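Per the labels' protocols, RNA was isolated with RNeasy kits and libraries were made with a TruSeq v2 oligo dT kit and read in single reads of 50 cycles. The submitters' processing notes name Novoalign 2.08.01 and DESeq2. The sources used here do not give the read counter, its use of strand, the build or the annotation, so reads of near-identical copies may be split between them. The deposited table of 22513 genes holds whole read counts per gene, the authors' FPKM (per kilobase and per 1000000 counts), the authors' log2 fold change and the authors' adjusted p-value. 

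Counts were fitted with edgeR 4.0.16 in R 4.3.3 (filterByExpr, minimum count 10 and minimum total 15; TMM scaling; quasi-likelihood test with the group as its only term), with Benjamini-Hochberg adjustment over 19260 genes and a threshold of 0.05. CPM use TMM-scaled library sizes of the tested genes, levels between genes use FPKM, and SE is the absolute log2 fold change over the square root of F. Duplicate pairs have the same symbol apart from a last a or b. Copies that share a symbol were added to this pair rule after the data were seen. The pipeline was tested on simulated counts. Alternatives were RLE and upper-quartile factors, a filter at a mean of 5 CPM or none, DESeq2 1.42.0, limma-voom (limma 3.58.1), each library left out, libraries 1 to 8 and 9 to 15 alone, a fit without 4 libraries (normal brains 1, 2 and 4 and tumor 13), and 2 in place of 0.5 in the ratios.

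Members, 5 pathway lists and 13 cell type lists were chosen with earlier results of these data known. Named by rule were, in each subunit class, the member with the highest FPKM in normal brain and the largest increase and decrease, all members called higher, members with 1 library apart, and the smallest p in each direction of a pathway list. Other members are given as examples. Some members and markers that the rule takes are not reported here by name, and they stay in the counts over all members.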

Additional observations from a re-analysis of the deposited data

Results flagged for a closer look

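Dixon's test at the 95% level was run on the CPM of 108 groups of values (54 members in 2 groups of libraries). In 10 of them 1 library lay apart from the rest. For normally distributed values chance flags about 1 in 20, and whether these CPM are so distributed was not tested. CPM of scn4ab was 4036 in tumor 14, and the next tumor had 1118. CPM of CACNA1E was 102 in tumor 13, and the next tumor had 18.1. CPM of CACNA1F was 18.0 in the same tumor, and the next had 2.78. Tumor 8 was apart in scn1lab (79.2 CPM) and in the CACNG7 copies ENSDARG00000063006 (22.5 CPM) and ENSDARG00000070624 (15.2 CPM). Tumor 7 was apart in CACNG5 (ENSDARG00000039240; 22.7 CPM). Tumor 6 was apart in SCN10A (2.49 CPM) and cacna1db (5.05 CPM). Normal brain 2 was apart in scn12aa (2.73 CPM). Each was the highest value of its group.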

How the results depend on the processing

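No paired analysis was possible because the groups compared share no replicate number, each library having its own. The number of lower members was 45 and lay between 41 and 50 over all alternatives, and between 44 and 45 when each library was left out in turn. The number of higher members, 5, was 2 with a filter at a mean of 5 CPM (which leaves out 3 of them), 3 with limma-voom, 2 in libraries 1 to 8 alone, and 3 to 5 with 1 library left out (3 without normal brain 11 and without tumor 14). The 13 changed pairs became 15 with 2 added to CPM and 12 to 14 with 1 library left out. Of 1598 values of single members and pairs under alternatives, 1524 kept direction and call, 47 lost the call, 13 gained it and 14 changed sign.

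Sign changes were all in values near 0 that did not pass. CACNA1S (ENSDARG00000029457) was 0.0567 in libraries 1 to 8 alone and -0.623 to 0.027 with 1 library left out. With 2 added to CPM, the ratio differences were -0.325 for pair cacna1d, -0.116 for pair cacna2d2, -0.285 for pair cacnb3 and 0.199 for pair cacnb4. With 1 library left out they were -0.0686 to 0.182 for pair cacna1d, -0.0255 to 0.283 for pair cacna2d2, -0.0251 to 0.173 for pair cacnb3 and -0.542 to 0.110 for pair cacnb4. CACNA1F was called lower with DESeq2 (-1.93), with limma-voom (-1.83), in libraries 1 to 8 alone (-2.47), and without the 4 libraries (-2.30). The causes were not tested. Depth limits the members with few counts, such as scn1laa (0 to 19 counts a library) and scn12aa (3 to 45).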

Other observations

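Levels of other cell types in the same libraries were as follows, as counts of tested genes of each list, with the median log2 fold change in parentheses. For comparison, 43.5% of all genes tested were higher and 33.4% lower (0.21). Of 13 skeletal muscle genes 10 were higher and 3 did not pass (2.79), and of 4 heart muscle genes 3 were higher and 1 lower (2.14). Of 19 oligodendrocyte lineage genes 13 were higher and 2 lower (2.31; 1 lower without any 1 of the normal brains other than normal brain 1). Microglia and macrophage genes were higher in 22 of 23 cases and lower in none (2.47), and genes of T, NK and B cells in 9 of 15 cases, with 2 lower (1.41). Of 17 radial glia and astroglia genes 6 were higher and 6 lower (0.47), and of 17 endothelial genes 5 were higher and 7 lower (-0.37; 4 lower without tumor 5 and without tumor 6).

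Lists for other tissues gave these counts, to be read beside the same shares over all genes tested. Of 8 tested photoreceptor genes 2 were lower and 6 did not pass (-1.66; without normal brain 2 the median was -0.26, and without tumor 6 there were 6 lower of 9 tested). Of 7 tested hair cell genes 6 were lower and 1 did not pass (-2.28), and this list holds OTOF, which had 208 ± 22.9 CPM in normal brain and 20.1 ± 18.3 CPM in tumor. Of 12 skin genes 3 were higher and 9 did not pass (0.41), and the median was 1.26 without normal brain 4 and -0.63 without tumor 12; 2 genes were higher without tumor 12, and 5 without normal brain 4, tumor 7 or tumor 13. Of 6 erythrocyte genes 3 were lower and 3 did not pass (-0.88), and 5 were lower without tumor 8 or tumor 12. All 7 tested liver genes were lower (-6.20), a result carried by normal brain 1, which had 15726 CPM over the list: without it 2 of 6 tested genes were lower, 1 was higher and 3 did not pass (-0.74).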
